A study of Mus musculus with 13 samples.

Results

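Plasma miRNAs of untreated dystrophic mice were compared with those of untreated healthy mice. The comparison held 6 of the 13 plasma libraries of the study, chosen by their titles: 3 naive mdx mice (animals 36, 37 and 39) and 3 naive wt mice (animals 86, 89 and 95), with 1 library per mouse. The naive wt mice were C57BL/10J. The naive mdx mice were C57BL10ScSn-Dmdmdx/J, a strain on a related background that lacks full-length dystrophin because of a nonsense mutation in Dmd. The strain label itself reads C57BL/10J for every library, so the genotype rests on the titles and the methods. All 6 were males, young adults when the study began, that were bled at time point T16. They received neither drug nor vehicle but went through the same functional tests as the treated mice, and nothing in the sources gives litters or bleeding days. The remaining 7 libraries were from mdx mice given vehicle or Givinostat. They entered the choice of the miRNAs tested, the scaling of the libraries and the estimate of the spread between mice, but not the group means compared. The question was how the lack of dystrophin shifts the miRNAs of plasma. The closely related strains cannot be told apart from the mutation.

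miRNAs are short RNAs, cut from hairpin precursors, that repress messenger RNAs. Bases 2 to 8, the seed, set most of their choice of targets. Plasma has no miRNA synthesis of its own. Its miRNAs are released by muscle, liver, blood cells and other organs, bound to proteins or inside vesicles. In dystrophic muscle, fibres without dystrophin tear, leak their contents and regenerate, and miRNAs that are made mainly in muscle are a known blood marker of this damage. miR-122-5p is by far the main miRNA of hepatocytes and is usually abundant in plasma. A plasma library gives shares of a fixed number of reads, so more cells that release a miRNA, more release per cell and slower clearance cannot be told apart, and a miRNA that takes up much of a library lowers the share of all the others.

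The mature sequences of 19 miRNAs that carry the results are given from RefSeq (GRCm38.p6), 5′ to 3′, with the seed in capitals. The first set stood higher in naive mdx plasma and holds miRNAs of muscle and energy metabolism together with the miR-483 arms of Igf2 and a pair of the miR-29 family.
miR-206-3p: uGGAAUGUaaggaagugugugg
miR-133b-3p: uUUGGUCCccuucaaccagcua
miR-378b: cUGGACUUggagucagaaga
miR-378d: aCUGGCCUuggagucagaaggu
miR-22-3p: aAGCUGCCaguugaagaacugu
miR-22-5p: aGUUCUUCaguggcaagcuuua
miR-193b-3p: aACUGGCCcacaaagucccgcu
miR-365-3p: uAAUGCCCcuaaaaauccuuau
miR-149-5p: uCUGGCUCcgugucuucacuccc
miR-483-3p: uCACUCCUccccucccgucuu
miR-483-5p: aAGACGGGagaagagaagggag
miR-29a-3p: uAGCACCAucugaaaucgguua
miR-29c-3p: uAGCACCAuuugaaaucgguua
The second set stood lower. The let-7 pair and the miR-29 pair each share a seed, and each pair moved in a single direction.
let-7a-5p: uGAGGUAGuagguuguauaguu
let-7f-5p: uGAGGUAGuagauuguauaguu
miR-192-5p: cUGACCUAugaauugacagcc
miR-194-5p: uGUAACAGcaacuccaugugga
miR-205-5p: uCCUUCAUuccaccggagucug
miR-451a: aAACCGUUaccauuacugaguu

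The make-up of the libraries differed first of all in miR-122-5p and in the muscle miRNAs. miR-122-5p made up 59.8%, 37.6% and 64.6% of the library in naive wt mice 86, 89 and 95, and 1.371%, 3.07% and 10.6% of it in naive mdx mice 36, 37 and 39. The groups lay far apart, and mdx mouse 39 stood above the other mdx mice. The mean share was 54.0% ± 14.4 in naive wt and 5.00% ± 4.89 in naive mdx mice (SD, n = 3; exact permutation test, two-sided, p = 0.1, which is the smallest p that 3 against 3 mice allow). The muscle list, which holds the miRNAs made mainly in skeletal muscle or heart, took 1.33%, 2.09% and 0.707% in naive wt plasma and 28.3%, 39.7% and 30.2% in naive mdx plasma. miR-122-5p was the most abundant miRNA of every naive wt library and miR-206-3p that of every naive mdx library. Total counts were 1446195 to 2899315 in naive wt and 1167161 to 1556118 in naive mdx mice, so a miRNA with no count in a library can still be present there at 1.03 to 2.57 CPM (CPM give each count relative to the size of its library; the limit is 3 counts per library and, without molecular identifiers, takes in counting error alone).

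**Figure D1:**
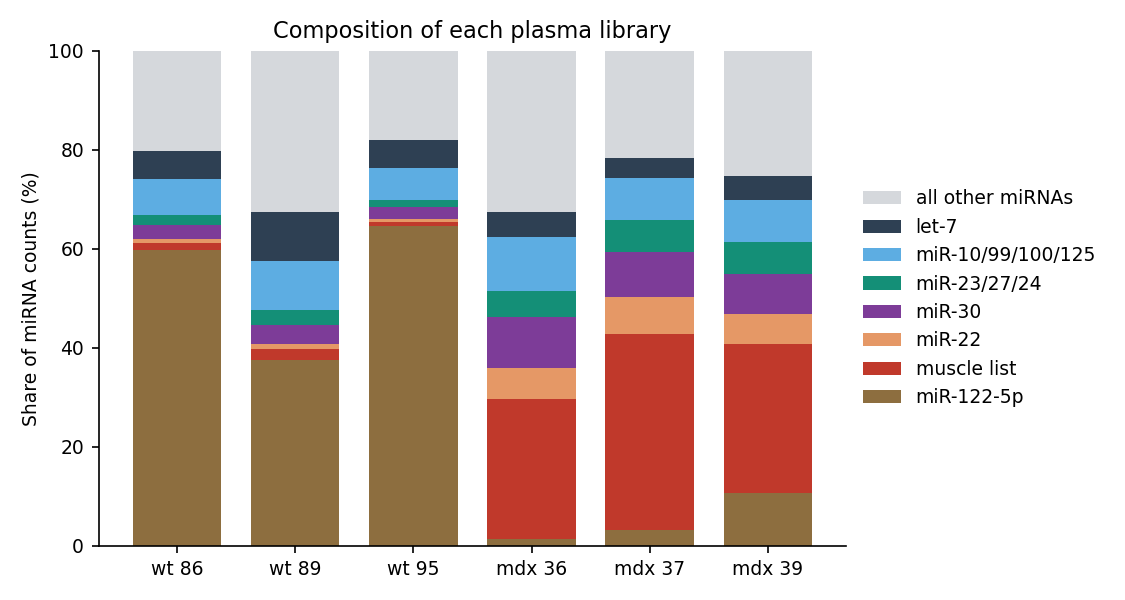
Share of all miRNA counts (%, vertical axis) taken by miR-122-5p, the muscle list and 5 other families in each of the 6 plasma libraries. miR-122-5p fills 37.6% to 64.6% of the naive wt libraries, and the muscle list fills 28.3% to 39.7% of the naive mdx libraries.

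Outside miR-122-5p, the naive wt libraries held fewer counts than the naive mdx libraries. Counts outside miR-122-5p were 841057, 903011 and 1026315 in naive wt and 1151158, 1456773 and 1391839 in naive mdx mice. The library with the highest total, that of wt mouse 95, thus had fewer informative counts than any mdx library. With the muscle list also set aside, 813315, 872735 and 1005830 counts remained in naive wt and 820293, 859602 and 922433 in naive mdx mice. These ranges overlapped (897293 ± 98579 against 867443 ± 51519, SD, n = 3; exact permutation p = 0.7). Raw counts also depend on the depth of each library, so this overlap does not show that the remaining miRNAs were level. Counts were scaled by TMM, which sets the level of each library by the bulk of its miRNAs and trims those that differ most. The TMM factors were 0.755, 1.23 and 0.733 in naive wt and 1.37, 0.941 and 1.18 in naive mdx mice. CPM below are on this scale.

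edgeR's quasi-likelihood test called 160 of 368 tested miRNAs at a Benjamini-Hochberg adjusted p under 0.05, or 43.5%. Of these 99 were higher in naive mdx plasma (26.9% of those tested) and 61 lower (16.6%). The rises were the larger changes: 49 of the higher and 8 of the lower miRNAs changed over 4-fold, and the median log2 fold change, naive mdx minus naive wt, was 1.99 among the higher and -1.198 among the lower. Over all tested miRNAs the median was 0.04. The values of the 3 naive wt and the 3 naive mdx mice did not overlap for 212 miRNAs (57.6%), among them 149 of the 160 called. Without wt mouse 89, 86 were higher and 40 lower. Scaled by library totals, 118 were higher and 23 lower, with the median of all miRNAs moved up by 0.37. With miR-122-5p removed and totals used, it was 55 higher and 164 lower, with a shift of -0.68. With both miR-122-5p and the muscle list removed, totals gave 84 higher and 88 lower, with a shift of -0.12. Upper-quartile scaling gave 82 and 96 with a shift of -0.22, while the RLE factors (100 and 73) and TMM without miR-122-5p (98 and 71) stayed close to the main result. Under all 6 of these scalings, 79 calls held wherever the miRNA was tested, 56 higher and 23 lower. Directions below are relative to the bulk of the miRNAs.

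**Figure D2:**
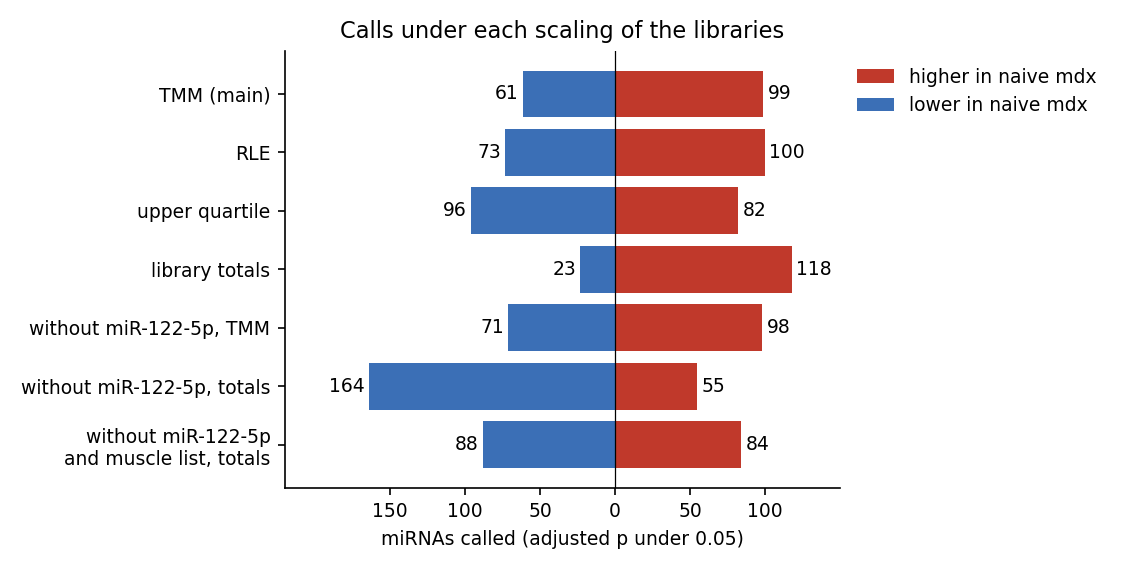
Number of miRNAs called higher (right) and lower (left) in naive mdx than in naive wt plasma at an adjusted p under 0.05, for TMM and 6 other ways of setting the libraries level. The counts lower in naive mdx plasma run from 23 by library totals to 164 by totals without miR-122-5p.

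The plot of level against fold change shows the muscle list at the top right, at high levels with large rises, and miR-122-5p alone at the bottom right. Among called miRNAs that averaged 10 CPM or more, the largest rise was that of miR-133a-5p and the largest fall that of miR-122-3p, the minor arm of the miR-122 hairpin.

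**Figure D3:**
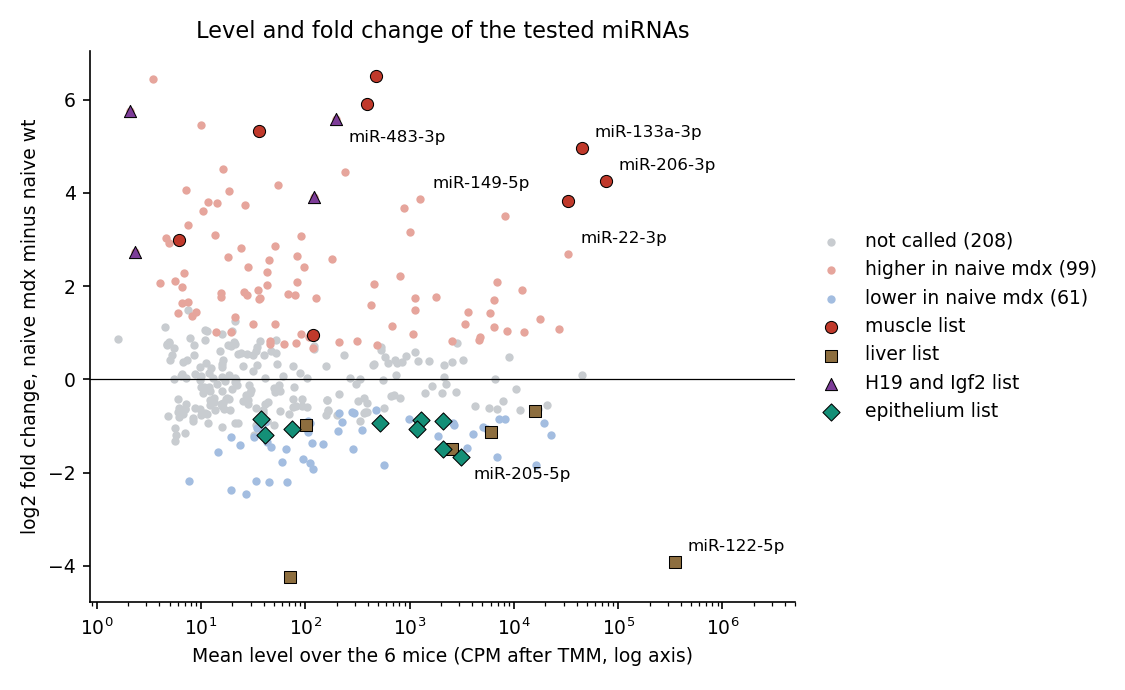
Mean level over the 6 mice (CPM after TMM, log axis) against the log2 fold change, naive mdx minus naive wt, for the 368 tested miRNAs, with 4 lists marked. Of the muscle list 7 of 8 members were called higher, and miR-122-5p stood at -3.91.

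The miRNAs made mainly in muscle fibres rose in 7 of the 8 tested members of their list, against 26.9% of all tested miRNAs. miR-206-3p, which is restricted to skeletal muscle and induced when fibres regenerate, was at 9808, 7243 and 5490 CPM in naive wt mice 86, 89 and 95 and at 90942, 201626 and 140541 CPM in naive mdx mice 36, 37 and 39, a 19.2-fold higher mean (log2 fold change 4.26, SE 0.36, adjusted p = 1.46e-07). miR-133a-3p, which restrains serum response factor and is made in skeletal muscle and heart, was at 2863, 3731 and 1702 CPM in naive wt and at 88797, 112416 and 59255 CPM in naive mdx mice (4.97, SE 0.42, adjusted p = 1.46e-07). miR-1a-3p, its partner from the same transcripts, was at 4782, 5959 and 2383 CPM in naive wt and at 25999, 105434 and 53663 CPM in naive mdx mice (3.82, SE 0.53, adjusted p = 2.97e-05). No value of these miRNAs overlapped between the groups, and mdx mouse 37 was the highest of the mdx mice for each of them. Among naive wt mice their levels were lowest in mouse 95, which also had the highest share of miR-122-5p.

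The hairpins of miR-206 (GRCm38 chr1:20679010-20679082) and miR-133b (chr1:20682769-20682887) lie in exons of the noncoding gene Gm28653 on the same strand. miR-133b-3p was at 17.7, 14.7 and 6.59 CPM in naive wt and at 750, 1087 and 494 CPM in naive mdx mice (log2 fold change 5.91, SE 0.46, adjusted p = 1.03e-07). Its sequence is nearly identical to that of miR-133a-3p, so reads can be shared between them and its level is uncertain. The minor arms behaved alike, with miR-133a-5p at a mean of 10.3 CPM in naive wt and 937 CPM in naive mdx mice (6.51, SE 0.43) and miR-1a-1-5p at 1.78 and 70.6 CPM (5.32, SE 0.62), each with an adjusted p under the threshold. The list also holds markers of slow fibres and heart. miR-208b-3p, from an intron of the slow myosin gene Myh7, was at 0.47 to 2.53 CPM in naive wt and at 6.26 to 13.4 CPM in naive mdx mice (2.99, SE 0.57, adjusted p = 4.75e-04); its naive wt values lay near the level that 3 counts allow, so the size of its rise is uncertain. miR-499-5p, from an intron of Myh7b, was at 48.0 to 117 CPM in naive wt and at 95.8 to 209 CPM in naive mdx mice; the groups overlapped and it did not pass (0.95, SE 0.42, adjusted p = 0.0768). Under each scaling that kept the list, 7 of its members rose. Several of these miRNAs were named from these same mice by the study, so the list is not independent evidence of its direction.

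The miR-378 family, whose main member is encoded within the metabolic coactivator gene Ppargc1b, rose in 5 of 5 tested members, against 26.9% of all, with a median log2 fold change of 3.74. miR-378a-3p was at 1306, 1407 and 1285 CPM in naive wt and at 10907, 21701 and 12517 CPM in naive mdx mice (3.50, SE 0.28, adjusted p = 1.03e-07). The naive wt values lay within a narrow range, and each mdx mouse stood far above it. miR-378b, of which the hairpin lies at chr11:88352773-88352864 in an intron of Msi2 on the opposite strand, was at 13.2 to 28.2 CPM in naive wt and at 282 to 619 CPM in naive mdx mice. The sequences above show that miR-378b and miR-378d have nearly the same 3′ part but different seeds, and reads of such close relatives can be split between them by the counting.

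miR-22, a regulator of heart and muscle growth that is also present in many other tissues, was the most abundant rising miRNA outside the muscle list. miR-22-3p was at 9405, 8263 and 8784 CPM in naive wt and at 44520, 76333 and 50523 CPM in naive mdx mice (log2 fold change 2.70, SE 0.27, adjusted p = 6.94e-07). miR-22-5p, from the other arm, was at 253, 188 and 175 CPM in naive wt and at 1196, 2702 and 1590 CPM in naive mdx mice (3.16, SE 0.31). Both arms rose by a similar factor, without overlap. Together they made up 6.17% to 7.44% of all counts in naive mdx plasma and 0.657% to 1.04% in naive wt plasma. miR-486, from the Ank1 locus and made in both muscle and red blood cells, rose in 3 of 4 tested forms, against 26.9% of all. miR-486a-5p was at 259 to 341 CPM in naive wt and at 860 to 1618 CPM in naive mdx mice (2.21, SE 0.48, adjusted p = 1.63e-03), with mdx mouse 36 the highest. miR-486b-5p has a near-identical sequence, so the split between these forms is uncertain. It moved from 1469 to 2412 CPM to 2929 to 8326 CPM (1.46, SE 0.42, adjusted p = 0.0107), and it did not pass without mdx mouse 36, without wt mouse 95, or by totals without miR-122-5p. miR-486a-3p did not pass (0.70, SE 0.37, adjusted p = 0.129).

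**Figure D4:**
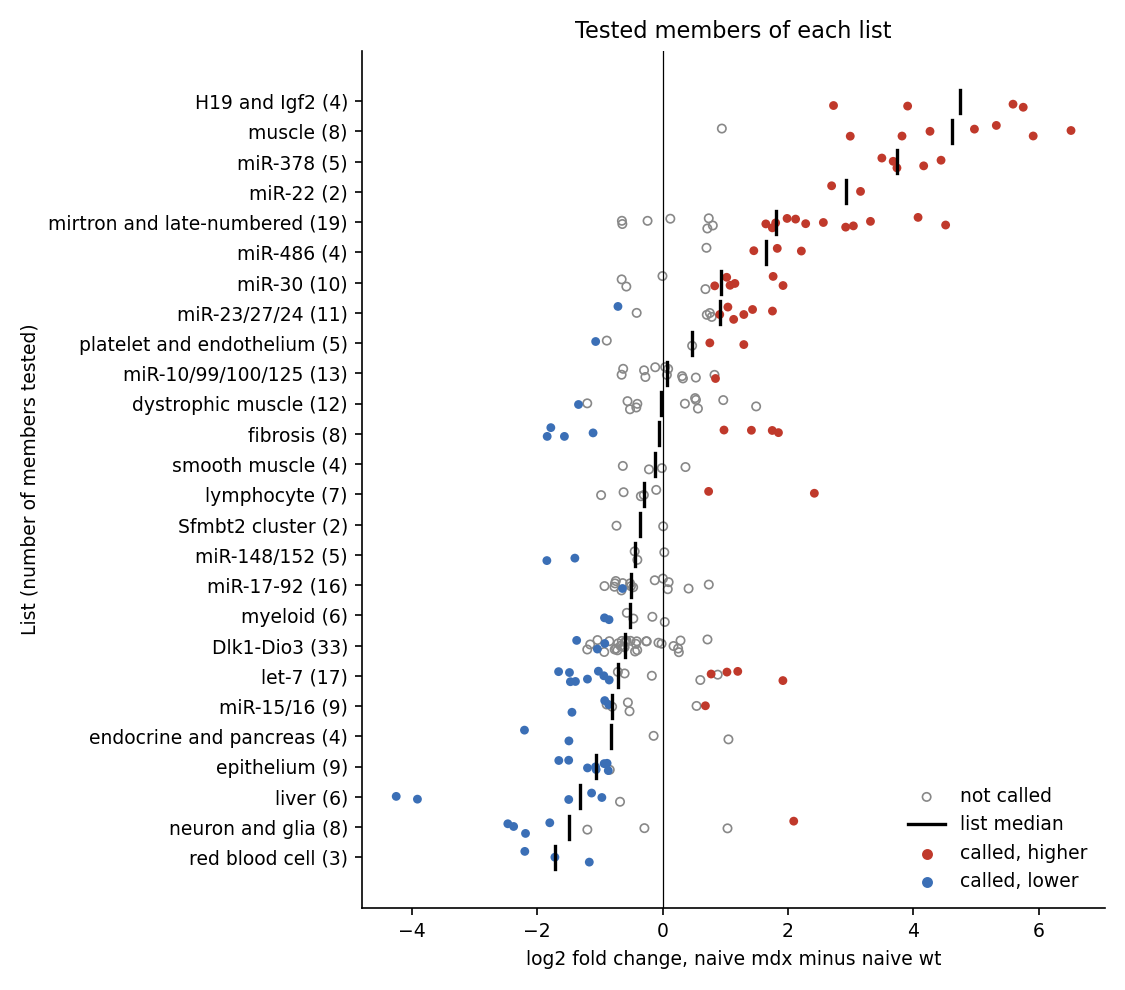
log2 fold change, naive mdx minus naive wt (horizontal axis), of each tested member of 26 lists, with the list median as a black bar; filled points passed an adjusted p of 0.05 and open points did not. The H19 and Igf2, muscle, miR-378 and miR-22 lists lie to the right, and the liver, epithelium and red blood cell lists to the left.

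The miRNAs of liver were lower as a group. miR-122-5p was at 793122, 306406 and 881184 CPM in naive wt and at 10024, 32652 and 89238 CPM in naive mdx mice, a lower mean by over an order of magnitude (log2 fold change -3.91, SE 0.82, adjusted p = 1.17e-03); without mdx mouse 39 the log2 fold change of miR-122-5p was -4.95. Wild-type mouse 89 was the lowest of its group but still stood above every mdx mouse. miR-122-3p was at 68.8 to 255 CPM in naive wt and at 2.51 to 12.0 CPM in naive mdx mice (-4.25, SE 0.80, adjusted p = 4.87e-04), so both arms of the hairpin fell by a similar factor. Outside miR-122 the falls were smaller. miR-192-5p, made in liver, gut and kidney, was at 10278, 6452 and 8157 CPM in naive wt and at 2835, 3441 and 5082 CPM in naive mdx mice (-1.13, SE 0.32, adjusted p = 9.33e-03). miR-194-5p, whose hairpins are paired with those of miR-192 and miR-215, was at 3928, 3802 and 3484 CPM in naive wt and at 1084, 1248 and 1643 CPM in naive mdx mice (-1.50, SE 0.34, adjusted p = 2.07e-03). miR-215-5p, which has nearly the same sequence as miR-192-5p, did not pass (-0.68, SE 0.33, adjusted p = 0.103). In all 5 of 6 tested members of the list fell, against 16.6% of all miRNAs, with a median of -1.31, and none rose under any scaling; by library totals 3 fell. As a share of the counts outside miR-122-5p, the liver list still took 6.21%, 6.96% and 5.78% in naive wt and 2.27%, 1.70% and 2.49% in naive mdx mice. The muscle list took 28.7% to 41.0% of these counts in naive mdx and 2.00% to 3.35% in naive wt mice, which lowers the other shares in naive mdx mice. By totals without miR-122-5p and the muscle list, 4 of 5 tested liver members fell, where 88 of 364 miRNAs did. Near these stood miR-148a-3p, abundant in liver and other secretory tissue and the 4th most abundant miRNA of naive wt plasma, at 30579, 19946 and 26838 CPM in naive wt and at 4250, 7865 and 9424 CPM in naive mdx mice (-1.84, SE 0.37, adjusted p = 7.66e-04); its relatives miR-148b and miR-152 did not pass.

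Blood cell miRNAs did not move as a block. The red blood cell list fell in 3 of 3 members, against 16.6% of all. miR-451a, which is cut by Ago2 without Dicer and is the main miRNA of red cells, was at 5935, 6038 and 4857 CPM in naive wt and at 2397, 2216 and 2875 CPM in naive mdx mice (-1.17, SE 0.24, adjusted p = 1.06e-03). miR-144-3p and miR-144-5p, from the same transcript at chr11:78073005-78073241, changed by -1.72 (SE 0.39) and -2.20 (SE 0.50), both with an adjusted p of 2.09e-03. By library totals 2 of the 3 passed, and miR-451a did not (adjusted p = 0.0758); it also lost its call with the correction for GC content described further on (adjusted p = 0.0818). A common index of red cell lysis in plasma, miR-451a over miR-23a-3p as a log2 ratio, was 0.02, -0.11 and 0.11 in naive wt and -2.13, -2.68 and -1.80 in naive mdx mice. Both parts of the ratio moved, since miR-23a-3p itself was higher in naive mdx plasma (1.04, SE 0.23, adjusted p = 1.60e-03), a call lost by totals without miR-122-5p. The part of red cell lysis in the other results was not tested. miR-223-3p, the main miRNA of neutrophils, was at 294, 270 and 238 CPM in naive wt and at 412, 197 and 213 CPM in naive mdx mice, with overlapping groups (0.04, SE 0.30, adjusted p = 0.937). miR-142a-3p, found in all white blood cells, fell to 76.4 ± 13.2 from 145 CPM (-0.93, SE 0.35, adjusted p = 0.0392), and miR-146a-5p, a brake on innate immune signalling, was at 7969 to 11391 CPM in naive wt and at 4356 to 5532 CPM in naive mdx mice (-0.85, SE 0.22, adjusted p = 5.58e-03). Neither passed by library totals, with the GC correction or without wt mouse 95, and miR-142a-3p also lost its call without wt mouse 89 or without either of mdx mice 36 and 37. miR-150-5p of mature lymphocytes overlapped between the groups, at 1825 to 2591 CPM in naive wt and at 613 to 3769 CPM in naive mdx mice, where mouse 36 was the highest of all 6. Of the lymphocyte list 2 of 7 tested members rose, against 26.9% of all, and 0 fell. Those that rose were miR-181b-5p (0.73) and miR-181a-2-3p (2.42). Without mdx mouse 36 it was 2 that rose and 4 that fell. miR-126a-3p of endothelium and platelets was at 6313 to 9592 CPM in naive wt and at 2815 to 4196 CPM in naive mdx mice (-1.07, SE 0.36, adjusted p = 0.0254). Its call was lost by library totals and without wt mouse 89, mdx mouse 36 or mdx mouse 37. miR-191-5p, also abundant in platelets, did not pass (0.47, SE 0.26, adjusted p = 0.14). Of the platelet and endothelium list 2 of 5 tested members rose, against 26.9% of all, and 1 fell, against 16.6%. Those that rose were miR-24-3p (1.30) and miR-191-3p (0.75). By totals without miR-122-5p it was 1 that rose and 2 that fell.

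miRNAs of the connective tissue split by family. The miR-29 family, which represses collagen genes, rose: miR-29a-3p was at 3448, 3616 and 2665 CPM in naive wt and at 5886, 11202 and 8887 CPM in naive mdx mice (1.42, SE 0.25, adjusted p = 2.80e-04), and miR-29c-3p at 54.5 to 62.6 and 125.3 to 232 CPM (1.75, SE 0.29, adjusted p = 1.59e-04). miR-29b-3p, called in the same direction (0.98, SE 0.36, adjusted p = 0.0343), overlapped between the groups and lost its call under 8 alternatives, among them leaving out any of wt mice 86 and 95 and mdx mice 37 and 39. miR-199 and miR-214, made by fibroblasts and other mesenchymal cells, fell. miR-199a-5p was at 649, 865 and 1175 CPM in naive wt and at 218, 237 and 296 CPM in naive mdx mice (-1.84, SE 0.31, adjusted p = 1.59e-04). miR-199b-5p, miR-214-3p and miR-214-5p changed by -1.56, -1.11 and -1.78, each lower in all mdx than in all wt mice. By library totals miR-199b-5p (adjusted p = 0.0589) and miR-214-3p (adjusted p = 0.127) lost their calls. Thus 4 of 8 tested members of the fibrosis list rose, against 26.9% of all, and 4 fell, against 16.6% (4 and 2 by library totals), and the list median of -0.06 describes neither set. The dystrophic muscle list holds miRNAs that earlier work found raised within regenerating muscle tissue. It gave 0 of 12 higher by edgeR, against 26.9% of all, with 1 at an unadjusted p under 0.05. DESeq2 also gave 0 of 12 higher. Without wt mouse 86 or mdx mouse 36 it was 1 of 12 by edgeR. miR-21a-5p was at 23856, 22783 and 27798 CPM in naive wt and at 10595, 20275 and 19664 CPM in naive mdx mice (-0.56, SE 0.30, adjusted p = 0.132). miR-31-5p, which targets dystrophin mRNA, was at 18.1 to 22.6 CPM in naive wt and at 18.8 to 36.8 CPM in naive mdx mice (0.56, SE 0.36, adjusted p = 0.197), and miR-34c-5p at 9.03 to 13.2 and 9.40 to 34.7 CPM (0.97, SE 0.54, adjusted p = 0.146). Both values were higher in mdx mice 37 and 39 than in any wt mouse, with mouse 36 among the wt values. The single call, miR-335-3p, was lower (-1.35, SE 0.32, adjusted p = 2.96e-03), and lost its call by library totals and with the GC correction. By library totals 2 members were called higher, and by totals without miR-122-5p 6 were called lower.

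Epithelial miRNAs were lower almost throughout. miR-205-5p, of skin and other layered epithelia, was at 5345, 5316 and 3520 CPM in naive wt and at 1662, 1238 and 1604 CPM in naive mdx mice (-1.65, SE 0.26, adjusted p = 1.20e-04); its hairpin lies at chr1:193507463-193507530 in an exon of the noncoding gene 4631405K08Rik. miR-203-3p, of differentiating skin, was at 2271 to 3745 CPM in naive wt and at 522 to 1510 CPM in naive mdx mice (-1.50, SE 0.37, adjusted p = 4.13e-03). The miR-200 family, which holds cells in the epithelial state by repressing Zeb1 and Zeb2, fell less: miR-200c-3p changed by -1.07 (SE 0.23, adjusted p = 1.61e-03) and miR-200b-3p by -0.88 (SE 0.25, adjusted p = 9.55e-03). In all 8 of 9 tested members fell, against 16.6% of all, with a median of -1.06. By library totals 2 fell, miR-205-5p and miR-203-3p. Without wt mouse 89 it was 5, and with the GC correction also 5, where miR-200b-3p lost its call, against 9 over the same miRNAs with no correction. Of the nervous system list 1 of 8 tested members rose, against 26.9% of all, and 4 fell, against 16.6%. Without wt mouse 89 it was 1 that fell and without mdx mouse 36 it was 2. miR-9-5p, of neural progenitors, was at 20.9, 72.8 and 44.7 CPM in naive wt and at 1.25, 13.4 and 10.3 CPM in naive mdx mice (-2.47, SE 0.76, adjusted p = 0.0147), and miR-219a-2-3p of oligodendrocytes changed by -2.37 (SE 0.66, adjusted p = 8.58e-03). Both were highest in wt mouse 89 and lost their call without it (adjusted p = 0.0657 and 0.067), and miR-9-5p also without mdx mouse 36. miR-218-5p, of motor neurons and other tissues, was lower as well (-1.80, SE 0.50, adjusted p = 8.61e-03). miR-128-3p, abundant in brain and also made in muscle, rose: it was at 3608, 2274 and 2049 CPM in naive wt and at 11885, 11242 and 10672 CPM in naive mdx mice, which were closely alike (2.09, SE 0.35, adjusted p = 1.59e-04). Its hairpins lie in introns of R3hdm1 and Arpp21. Of the endocrine list, miR-7a-5p fell (-1.49, SE 0.40, adjusted p = 6.45e-03), and miR-375-3p of pancreatic islets overlapped between the groups (-0.14, SE 0.40, adjusted p = 0.778), with mdx mouse 36 the highest of the 6 at 2760 CPM.

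**Figure D5:**
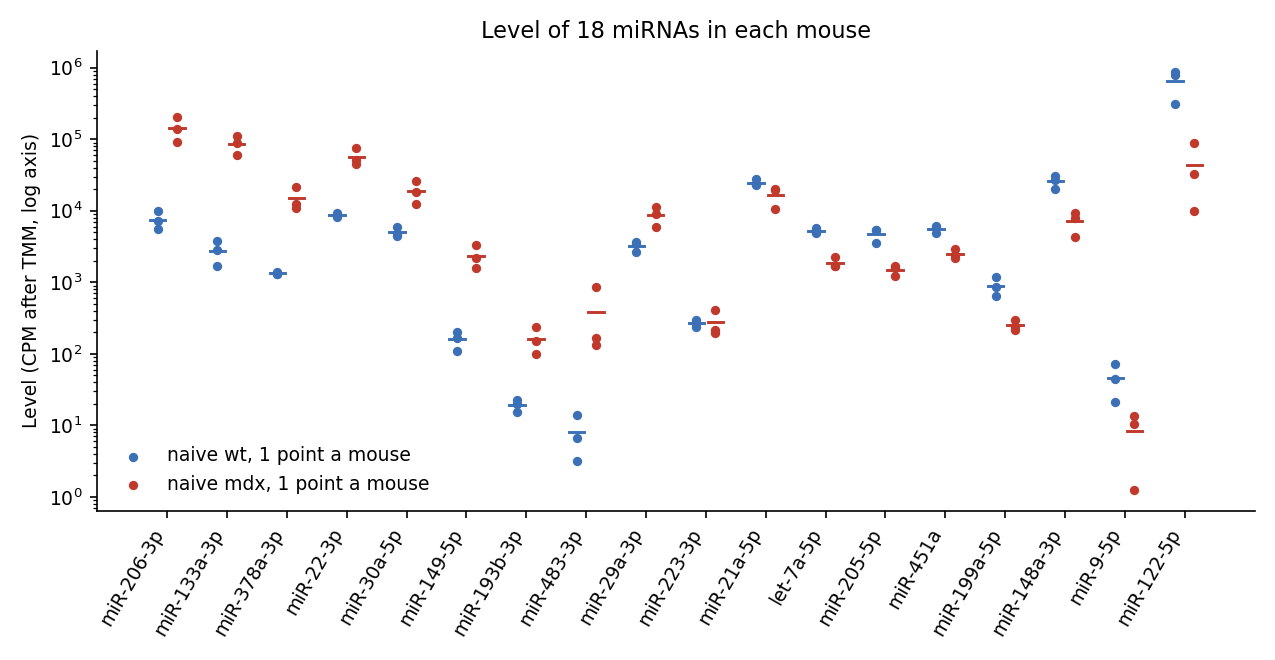
Level of 18 miRNAs in each mouse (CPM after TMM, log axis), with 1 point per mouse and a bar at the group mean (n = 3). Naive mdx mice lie above naive wt mice from miR-206-3p to miR-29a-3p, overlap them for miR-223-3p, and lie below them from miR-21a-5p to miR-122-5p.

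The miRNAs of the imprinted H19 and Igf2 loci on chromosome 7 rose in 4 of 4 tested members, where 26.9% of all did. The miR-675 arms were near the detection limit in naive wt mice. They passed the filter through mdx libraries and could only be called higher, so the 4 of 4 is not a fair match for that share. H19 and Igf2 are strongly expressed in the fetus and shut down in most adult tissue, though H19 is known to return in regenerating muscle. miR-483-3p, from an intron of Igf2 (chr7:142654924-142654996), was at 3.17, 14.1 and 6.59 CPM in naive wt and at 864, 166 and 134 CPM in naive mdx mice (5.59, SE 0.77, adjusted p = 2.88e-05). miR-483-5p was at 11.4, 18.6 and 15.1 CPM in naive wt and at 376, 144 and 161 CPM in naive mdx mice (3.91, SE 0.44, adjusted p = 3.11e-06). Both were highest in mdx mouse 36, but mdx mice 37 and 39 also stood well above every wt mouse, and both calls held without mouse 36. miR-675-3p, from an exon of the noncoding gene H19 (chr7:142577064-142577147), had 0 counts in each naive wt mouse. It had 4, 5 and 12 counts in naive mdx mice 36, 37 and 39. By library totals this was at least 10.3-fold higher than the level that 3 counts over the naive wt group allow. The bound is not on the TMM scale, and library totals moved the median of all miRNAs up by 0.37. miR-675-5p was at 0 to 1.13 CPM in naive wt and at 2.83 to 5.64 CPM in naive mdx mice (2.73, SE 0.86, adjusted p = 0.0159) and lost its call without wt mouse 95, without mdx mouse 36 and by totals without miR-122-5p. With miR-675-3p at its bound, the median log2 fold change of the 4 members was 3.64. That median sets a bound by library totals beside TMM fold changes of the other members. With the 6 naive libraries alone, 2 members of the list were tested and 2 rose. In the Dlk1-Dio3 cluster on chromosome 12, another imprinted group, 33 members of the list were tested. By edgeR 0 rose, against 26.9% of all, 3 fell, against 16.6%, and 30 did not pass. By DESeq2 it was 0 that rose and 4 that fell, and at an unadjusted edgeR p under 0.05 it was 1 and 8. The median was -0.60. Only 1 fell without wt mouse 95 or mdx mouse 36, and 1 rose without the latter. miR-493-5p, of which the hairpin lies in the same cluster but which the list left out, was higher (2.06, SE 0.61, adjusted p = 0.0123). It had 5, 1 and 2 counts in naive wt mice 86, 89 and 95 and 5, 14 and 12 counts in naive mdx mice 36, 37 and 39, so that the groups overlapped, and it lost its call by totals without miR-122-5p and without wt mouse 89, wt mouse 95 or mdx mouse 37. miR-409-3p was lower (-1.370, SE 0.36, adjusted p = 6.45e-03), a call lost by library totals and without wt mouse 86, and miR-127-3p did not pass (-0.65, SE 0.26, adjusted p = 0.0516). By totals without miR-122-5p 24 of the 33 were called lower, and by library totals 0 were and 1 was called higher.

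Outside all 26 lists, 140 miRNAs were tested, of which 40 rose and 13 fell, where 26.9% and 16.6% of all tested miRNAs did. miR-149-5p, from an intron of the glypican gene Gpc1 (chr1:92850378-92850443), was at 203, 166 and 110 CPM in naive wt and at 3278, 2192 and 1577 CPM in naive mdx mice, a 14.7-fold higher mean (3.88, SE 0.38, adjusted p = 6.72e-07). The pair miR-193b and miR-365-1, known from brown fat and muscle differentiation, shares a stretch of chromosome 16 (chr16:13449523-13453926). miR-193b-3p was at 22.8, 15.2 and 19.8 CPM in naive wt and at 150, 236 and 99.4 CPM in naive mdx mice (3.07, SE 0.41, adjusted p = 2.12e-05), miR-193b-5p changed by 4.03 (SE 0.65), and miR-365-1-5p by 3.62 (SE 0.47), so that 3 of 3 tested products of the stretch rose. miR-365-3p, which is also made from a hairpin on chromosome 11, rose as well (2.59, SE 0.33, adjusted p = 1.23e-05). On the other side, both arms of miR-455, known from cartilage, fell: miR-455-5p was at 139 to 253 CPM in naive wt and at 33.2 to 60.3 CPM in naive mdx mice (-1.92, SE 0.35, adjusted p = 3.66e-04), and miR-455-3p changed by -2.18 (SE 0.42). miR-26a-5p, the 5th most abundant miRNA of naive wt plasma, was lower (-0.94, SE 0.29, adjusted p = 0.0162), a call that was lost by library totals, with the GC correction, with the 6 naive libraries alone and without wt mouse 89 or mdx mouse 36.

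Families that share a seed differed in how evenly they moved. Of 12 seeds with at least 3 tested members among the miRNAs matched to RefSeq, 3 had every member called in 1 direction, 4 had fold changes on both sides of 0 and 6 had fewer than 2 members called. The 3 matched members with the miR-29 seed AGCACCA rose, as did the 3 with the miR-30 seed GUAAACA, miR-30a-5p, miR-30c-5p and miR-30e-5p, and the 3 with the seed of miR-200b, miR-200c and miR-429 (AAUACUG) fell. Not all of these calls held under other settings. miR-29b-3p lost its call under 8 alternatives, and miR-200b-3p and miR-200c-3p lost theirs by library totals. Going both ways were the seeds of miR-15 and miR-16 (AGCAGCA, -1.44 to 0.54), miR-25 and miR-92 (AUUGCAC, -1.23 to 0.08), miR-125 (CCCUGAG, -0.29 to 0.61) and miR-181 (ACAUUCA, -0.45 to 0.73). Of 17 tested forms of the let-7 family, 8 fell, against 16.6% of all, and 4 rose, against 26.9% (5 and 5 by library totals, 10 and 1 by totals without miR-122-5p). Of 9 with the let-7 seed GAGGUAG, 8 fell and let-7g-5p did not pass (-0.61, SE 0.27, adjusted p = 0.0747). let-7a-5p was at 5106, 5663 and 4872 CPM in naive wt and at 1676, 1704 and 2268 CPM in naive mdx mice (-1.47, SE 0.25, adjusted p = 1.61e-04), and let-7f-5p at 8122, 12630 and 10740 CPM and at 1974, 3730 and 4278 CPM (-1.66, SE 0.37, adjusted p = 1.94e-03). These miRNAs, which hold back growth genes in differentiated tissue, differ from each other by few bases, as the lines above show, and reads can be divided among them. In the miR-30 family 6 of 10 tested forms rose, where 26.9% of all did, against 2 higher and 3 lower by totals without miR-122-5p, led by miR-30a-5p, at 4418 to 5933 CPM in naive wt and at 12391 to 26239 CPM in naive mdx mice (1.92, SE 0.27, adjusted p = 4.25e-05). miR-30b-5p and miR-30d-5p, which were matched to no RefSeq entry, rose as well (1.15, SE 0.26, and 1.08, SE 0.26). In the miR-23/27/24 clusters, common in muscle and endothelium, 6 of 11 forms rose, where 26.9% of all did, and 1 fell, against 2 and 2 by totals without miR-122-5p and 3 and 0 without mdx mouse 37. miR-24-3p changed by 1.30 (SE 0.24, adjusted p = 3.41e-04), and miR-23b-3p, the member that fell (-0.71, SE 0.27, adjusted p = 0.0382), lost its call under several alternatives. miR-99a-5p, the 2nd most abundant miRNA in naive wt and the 5th in naive mdx plasma, did not pass (0.09, SE 0.24).

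Among the hairpins matched to RefSeq, both arms were tested for 80 that share neither arm with another such hairpin. Both rose in 9, including miR-22, miR-29c, miR-30a, miR-193b and miR-483, both fell in 6, including miR-144, miR-148a, miR-214 and miR-455, and the 2 arms were called in opposite directions in 5. A single arm was called in 24 and neither arm in 36. Of all tested miRNAs 26.9% were called higher and 16.6% lower. Whether these counts differ from those of unrelated arms was not tested. Outside these 80, both arms of miR-122 fell and both arms of miR-133a and miR-378a rose, and so did both of miR-24-2, miR-365-1 and miR-365-2, which share a 3p arm with another hairpin or each other, while both arms of miR-9 fell. In each of the 5 with opposite calls, let-7b, let-7d, let-7f-1, let-7i and miR-26a-2, the 5p arm fell and the 3p arm rose. For let-7f-1 the minor arm let-7f-1-3p was at 17.1, 12.97 and 13.6 CPM in naive wt and at 29.4, 84.9 and 51.6 CPM in naive mdx mice (1.92, SE 0.35, adjusted p = 3.41e-04), while let-7f-5p fell. For let-7d the arms changed by -0.94 (5p, SE 0.25, adjusted p = 6.03e-03) and 1.199 (3p, SE 0.27, adjusted p = 1.79e-03); the first call was lost by library totals and with the GC correction, the other by totals without miR-122-5p. let-7f-5p is also made from another hairpin, and the difference between arms was not tested. These hairpins lie together with let-7a-1 on chromosome 13 (chr13:48536012-48538272) in exons of the noncoding gene 6720427I07Rik. Over the 80 hairpins, the log2 fold changes of the 5p and 3p arms had a Pearson r of 0.668 and a Spearman rho of 0.457, a description across hairpins that share the libraries.

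Some miRNAs were read in all mice of a single group. The naive wt libraries held fewer counts outside miR-122-5p, so a count of 0 is likelier there. Of the 1063 miRNAs with a count in the 6 libraries, 22 had at least 1 count in each naive mdx mouse and 0 in every naive wt mouse. The reverse held for 7. Those with the most counts were miR-1199-5p, with 14, 7 and 13 counts in naive mdx mice 36, 37 and 39, and miR-675-3p. miR-1199-5p comes from an exon of 2210011C24Rik on the same strand (chr8:84011515-84011633). By library totals it was at least 17.9-fold higher than the level that 3 counts over the naive wt group allow. This bound, like that of miR-675-3p, is not on the TMM scale. miR-1963 (4, 4 and 7 counts), miR-665-3p (7, 4 and 4) and miR-7085-3p (7, 3 and 1) followed. The reverse set was led by miR-137-3p, of neurons, with 1, 3 and 4 counts in naive wt mice 86, 89 and 95. None of the reverse set passed the filter for testing, and their counts are close to the limit that a count of 0 allows. Some of the 22 are close to it as well, such as miR-341-5p with 1 count in each naive mdx mouse.

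Within the naive mdx group, mouse 36 was less like the others. Over the 368 tested miRNAs, Pearson correlations of log2(CPM + 1) were 0.982 to 0.989 within naive wt, 0.956 to 0.986 within naive mdx and 0.870 to 0.934 between the groups. Mdx mice 37 and 39 correlated at 0.986, inside the naive wt range, and mouse 36 correlated with them at 0.956 and 0.965. mdx mouse 36 stood apart, with 57 miRNAs over 2-fold above the mean of the other mdx mice and 41 over 2-fold below. The numbers were 17 and 34 for mouse 37 and 10 and 12 for mouse 39. Against the other wt mice they were 23 and 13 for mouse 86, 12 and 8 for mouse 89 and 3 and 20 for mouse 95. miR-328-3p, for example, was at 19232 CPM in mouse 36 and at 5120 and 5530 CPM in mice 37 and 39. The deviation of mouse 36 followed the GC content of the mature sequence, with an r of 0.522 over the 319 tested miRNAs that have a RefSeq sequence. GC content also differed between the calls: the median was 53.5% for miRNAs that were higher and 40.9% for those that were lower. The r of the log2 fold change with GC content was 0.339 with all 6 mice and 0.221 without mouse 36. When each library was corrected for GC content (an alternative added after the data were seen), 89 miRNAs were higher and 50 lower among these 319, against 87 and 64 with no correction; 106 of 139 calls were kept and none changed sign. Whether GC content or the genotype sets the remaining relation was not tested. Without mouse 36, 95 were higher and 56 lower.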

How the data were processed

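Small RNA from plasma was sequenced on a NextSeq 500 after NEBNext library preparation, which adds no molecular identifiers. Its adapters favour some sequences, so levels of different miRNAs are not on 1 scale. The authors mapped trimmed reads with Bowtie to GRCm38 (mm10), allowing no mismatch in short reads, annotated them with miRBase and deposited whole-number raw counts of 1907 mature miRNAs, adding up the variants of each. The submitters' processing notes list cutadapt 1.4.2, Bowtie 1.0.0 and bcl2fastq 1.37.0, while the methods name Trimmomatic for trimming. Reads that map to several loci can be assigned to more than 1 miRNA. The log2 values that the authors also deposited were made from the same counts and were not used.

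Each column was tied to its mouse by name, with 0 unmatched. Of 1203 miRNAs with a count, 368 passed filterByExpr (minimum count 10, by group) in edgeR 4.0.16 under R 4.3.3. After TMM scaling, the 13 libraries entered a single quasi-likelihood fit of the 4 group means (glmQLFit with legacy = FALSE, glmQLFTest), and naive mdx was compared with naive wt. The study's methods name DESeq2, which was run here as an alternative (version 1.42.0). SEs are the log2 fold change over the square root of F. Shares per mouse were tested by exact permutation, two-sided. The scripts were tested on simulated data, and no library was a copy of another.

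The groups, the 26 lists and the miRNAs named were chosen with earlier results of these data known, and the study named some of them from these mice. The miRNAs named are the 15 largest rises and falls among called miRNAs that averaged 10 CPM or more, the 10 most abundant of each group, up to 6 members of each list, the other arms of their hairpins and the 5 with most counts among those read in a single group; not all that met the rule are printed, and the seed and arm groups were singled out after their values were seen. Names were matched to RefSeq for 1623 miRNAs, and sequences and positions come from RefSeq GRCm38.p6, host genes from GENCODE. Alternatives were 6 other scalings, 2 filters, DESeq2, the 6 naive libraries alone, each mouse left out, and a loess correction for GC content. In the main fit, p-values set the difference between the naive groups against a spread between mice that was estimated from all 13 libraries. They rest on these mice alone.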

Additional observations from a re-analysis of the deposited data

How the results depend on the processing

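No paired analysis was possible because the groups share no animal numbers. The scaling of the libraries moved the counts more than any other choice. The miRNAs lower in naive mdx plasma were 61 by TMM, 96 by upper-quartile scaling, 23 by library totals and 164 by totals without miR-122-5p, where those higher were 55 in place of 99. The median log2 fold change of all miRNAs, 0.04 by TMM, was -0.20 by upper-quartile scaling, 0.43 by library totals, -0.62 by totals without miR-122-5p and -0.11 by totals without miR-122-5p and the muscle list; these shifts come from what each scaling holds level. It was -0.065 with the 6 naive libraries alone, where 341 miRNAs were tested. There 70 were called higher and 53 lower, and 118 of the 149 main calls that were tested again were kept. Leaving out 1 mouse at a time gave 75 to 104 higher, 40 to 64 lower and a median of -0.089 to 0.13. The count of 40 was without wt mouse 89, and its cause was not tested. The difference in the share of miR-122-5p, 49.0 percentage points, was 43.7 to 57.2 without any 1 mouse and 47.3 over the counts outside the muscle list. The log2 fold change of miR-122-5p was -4.95 to -3.39 and that of miR-206-3p 3.98 to 4.55 without any 1 mouse, each called throughout. DESeq2 called 106 higher and 68 lower and kept 156 of the 160 calls. Of all calls, 74 held under every alternative but the GC correction in which the miRNA was tested, 54 higher and 20 lower.

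Changes of sign among the miRNAs named in the text were seen in 6 that were not called. miR-223-3p was at -0.20 by upper-quartile scaling, -0.60 and -0.066 by totals without miR-122-5p and without the muscle list as well, -0.081 with the naive libraries alone and -0.34 to 0.22 without any 1 mouse. miR-150-5p was at 0.19 by library totals and -1.32 to 0.086 without any 1 mouse. miR-375-3p was at 0.28 by library totals and -0.78 to 0.20 without any 1 mouse. By totals without miR-122-5p, miR-191-5p was at -0.17, miR-31-5p at -0.16 and miR-99a-5p at -0.61, the last with a call (edgeR adjusted p = 0.0183). miR-99a-5p was also at -0.14 by upper-quartile scaling, -0.043 without the muscle list as well and -0.027 to 0.19 without any 1 mouse. With 3 mice per group, single calls with an adjusted p near 0.05 rest on individual mice, and miRNAs under a few CPM cannot be compared at this depth.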
